A study of Mus musculus with 4 samples.

Results

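Type I interferon response genes are transcripts that cells make more of after a type I interferon signal. A list of 41 of them, taken by gene symbol, was followed through the 16798 genes of the deposited single-cell count table, and all 41 were present. The study compared CD45+ immune cells sorted from the cortex of mice aged 18 months. One group, called AD, carried the APP/PS1 transgenes, which drive amyloid deposition. The other, called ADAM, carried APP/PS1 and lacked both Axl and Mertk (Axl-/- Mertk-/-), the receptor tyrosine kinases by which phagocytes take up dying cells. Each genotype had 2 libraries (AD 1, AD 2, ADAM 1 and ADAM 2), each pooled 2 cortices, and every group carried APP/PS1, so no mice without amyloid transgenes were analysed here. The labels do not say what drives the transgenes or which part of Mertk was deleted.

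Type I interferons bind the receptor Ifnar1 and Ifnar2, whose kinases Jak1 and Tyk2 activate transcription factors, among them Stat2. With Irf9 these form a complex that binds the interferon-stimulated response element (ISRE) before target genes, whose products block viral entry, translation and replication, sense foreign nucleic acid, or tag proteins with the ubiquitin-like Isg15. Many of the same genes also answer interferon gamma through GAS elements, so expression of the list does not tell which interferon acted. In brain, Axl and Mertk signalling is known as a brake on interferon responses of myeloid cells, and small numbers of microglia with high interferon-induced transcripts are known from amyloid models.

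The 4 libraries held 3241 to 4543 cells and 14963857 to 29831947 molecules counted by unique molecular identifiers (UMIs), with medians of 3704 to 5457 UMIs per cell. Of the 15451 cells, 14628 had 1 of 9 cell classes given by the authors and 9077 microglia had 1 of 7 numbered states. A total of 24 cell barcodes, in 48 cells, occurred in more than 1 library. Levels below are CPM, the UMIs of a gene per 1000000 UMIs summed over the cells of a class or state in 1 library. Values of libraries are in the order AD 1, AD 2, ADAM 1 and ADAM 2 unless a library is named. Of the deleted genes, Axl stood at 104 CPM in AD 1 microglia, 67.1 in AD 2, 5.37 in ADAM 1 and 7.22 in ADAM 2, and Mertk at 274, 296, 246 and 274 CPM. Axl was thus low in both ADAM libraries (log2 fold of ADAM over AD −3.70, edgeR adjusted p = 0.195), while Mertk was not, and without knowing the deleted exons its 3′ reads are no check of that label.

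The letters of the ISRE were searched in RefSeq promoter windows. The genes were listed as known interferon response genes, so a share above that of all genes describes the list and is no independent support for it. The windows were 300 bases long, 250 before and 50 after each start on GRCm38.p6, and 34 of the 41 genes had at least 1. The pattern searched was GAAA, any 2 bases and GAAA again, or on the other strand TTTC, any 2 bases and TTTC. It was found in windows of 17 of these 34 genes (50%), against 3.99% of 27025 genes. The GAS letters TTCNNNGAA, which are their own reverse complement, were found in 9 of the 34 (26.5%), against 9.55% of all genes, and either pattern may overlap the other. Stretches before the start are shown for the 6 genes with ISRE letters there whose microglial level was highest, each 5′ to 3′ on the strand of its gene, with the bases of every match in capitals.
Bst2: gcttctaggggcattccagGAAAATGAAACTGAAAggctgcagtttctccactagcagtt
Trim30a: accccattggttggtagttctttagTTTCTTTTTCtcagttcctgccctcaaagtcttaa
Ifitm2: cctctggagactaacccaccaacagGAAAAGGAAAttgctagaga
Isg15: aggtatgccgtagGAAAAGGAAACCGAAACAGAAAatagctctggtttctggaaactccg
Slfn8: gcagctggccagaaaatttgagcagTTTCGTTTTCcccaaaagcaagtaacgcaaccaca
Phf11b: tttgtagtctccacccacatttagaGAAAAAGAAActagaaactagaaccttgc
These lie at chr8:71537562-71537621, chr7:104465195-104465254, chr7:140955988-140956032, chr4:156200850-156200909, chr11:83020824-83020883 and chr14:59341352-59341405, all 6 on the minus strand and outside the annotated gene. Among these 6, the match nearest the start began 36 bases before it in Trim30a and 124 bases before it in Bst2, the ends of their range. Isg15 held 3 overlapping matches and Bst2 held 2. A match is a run of letters, not a measured binding site. Of the 4 genes that fell in monocytes, described below, Slfn5 held 1 match, inside the annotated gene, Ifit2 and Oasl2 held none in their windows, and Rtp4 had no window. Of the 41 genes, 0 lay within 20 Mb of Axl or Mertk.

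The first question was where in these immune cells the list was expressed. Summed over all 41 genes, monocytes held 18389 and 16392 CPM in the AD libraries and 9853 and 12227 CPM in the ADAM libraries. Microglia as a whole held 1392, 1590, 1649 and 1892 CPM in the same order. T and NK cells held 3563 to 3871 CPM and macrophages 4454 to 6191 CPM. Neutrophils, on 30, 136, 11 and 580 cells, held 11895, 20208, 10704 and 6674 CPM, above monocytes in AD 2 and ADAM 1. Microglia were thus the lower end of the myeloid classes in every library. Monocytes lay above macrophages in every library by this sum, of which Ifitm1, Ifitm2 and Ifitm3 carried most in ADAM. Without these 3 genes monocytes held 9769, 8440, 3538 and 2859 CPM and macrophages 4310, 3260, 3723 and 2648 CPM, so that ADAM 1 monocytes lay below its macrophages. Classes and states are the authors' and may rest on these genes among others, so levels between classes and states are descriptions with no test.

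Of the 41 genes, 17 had their highest mean level in neutrophils, 15 in monocytes, 7 in T and NK cells, 2 in macrophages and 0 in microglia, among 7 classes. The lowest level was in B cells for 20 genes and in microglia for 12. Among membrane restriction factors, Ifitm3, which blocks fusion of virus with endosomes, had a mean of 5030 CPM in monocytes and 156 CPM in microglia. Bst2 (tetherin), which holds budding virus at the cell surface, had 846 CPM in macrophages, 302 in microglia, 256 in monocytes and 225 in T and NK cells. Samhd1, which degrades the nucleotides a virus needs to copy itself, had 1048 CPM in monocytes, 562 in neutrophils and 52.0 in microglia. Sp100, a protein of nuclear bodies, had its highest mean in T and NK cells, at 319 CPM. Neighbouring classes did not always part beyond their libraries: for Bst2, monocytes ranged from 89.96 to 414 CPM and T and NK cells from 172 to 257 CPM.

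**Figure D1:**
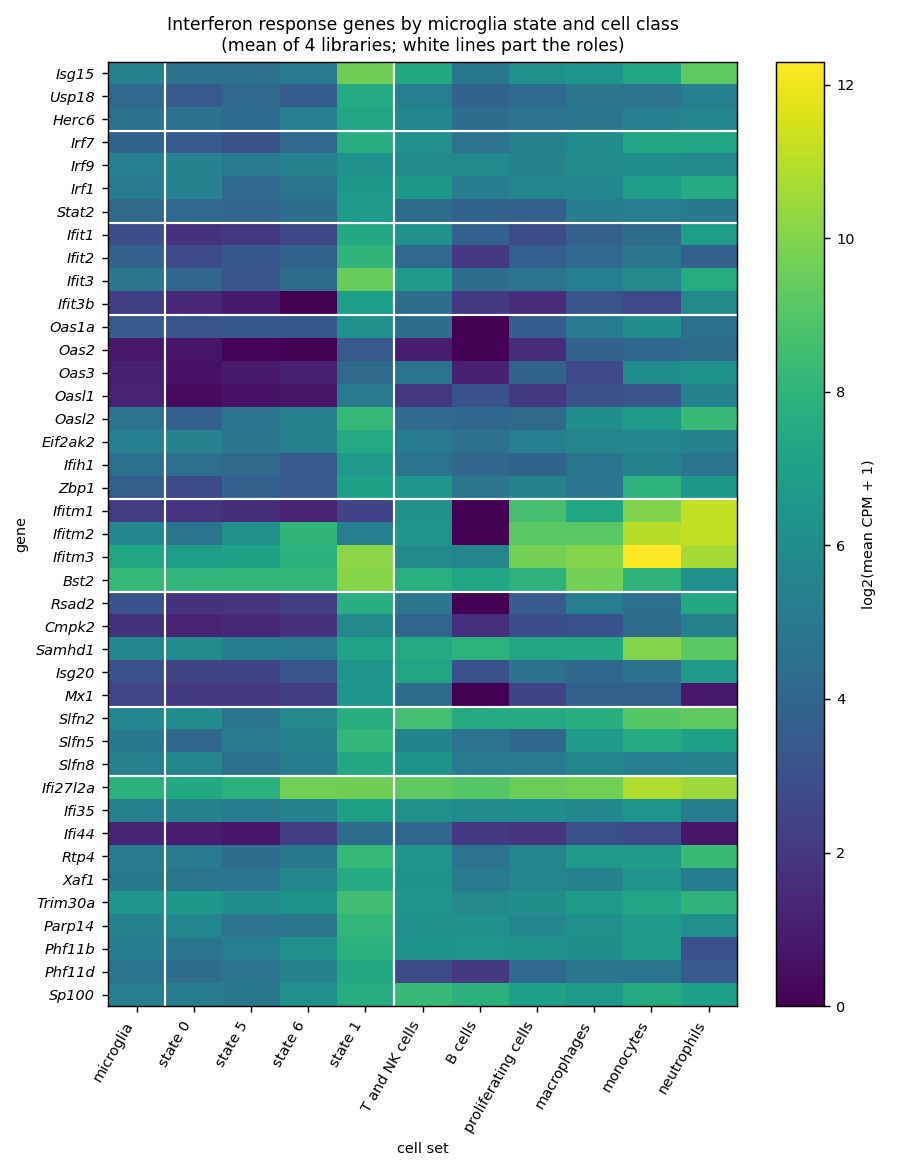
Mean level of each of the 41 genes (rows, parted by role) in microglia, 4 of the microglia states and 6 cell classes (columns), as log2 of the mean CPM of 4 libraries plus 1. State 1 is bright across most rows, while microglia as a whole, states 0 and 5 are dark for the Ifit, Oas and Mx1 rows.

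Neutrophils numbered 30 and 136 in the AD libraries and 11 and 580 in the ADAM libraries, and classes with under 20 cells in a library were not tested. Isg15, the ubiquitin-like modifier, stood at 799.9 CPM in AD 1 neutrophils, 1277 in AD 2, 155 in ADAM 1 and 202 in ADAM 2. Oasl2, an oligoadenylate synthetase-like protein, stood at 336, 544, 181 and 174 CPM. Both ADAM libraries lay below both AD libraries for these 2 genes, on few cells in 2 of the 4 libraries. Summed over the list without Ifitm1, Ifitm2 and Ifitm3, neutrophils held 5657, 11830, 3714 and 3552 CPM, also lower in both ADAM libraries. The share of all genes with such a separation in neutrophils was not computed, so these values are a description with no test. Ifitm1 stood at 2933, 3358, 2321 and 514 CPM, again lower in ADAM.

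Within microglia the list was concentrated in the 182 cells of state 1. State 1 had the highest mean of the 7 states for 38 of 41 genes, state 6 for 2 and state 2 for 1. The summed level in state 1 was 11413 and 9560 CPM in the AD libraries and 9320 and 9122 CPM in the ADAM libraries, against 1184 to 1707 CPM in state 0. State 1 held 2.43% of all microglial UMIs but a median of 17.6% of the microglial UMIs of a listed gene, with a range from 1.94% to 68.6%. Its cells are few, 19, 67, 55 and 41 per library, so a library's value for one gene can rest on a handful of UMIs.

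The share held by state 1 differed widely between genes. Over 50% of the microglial UMIs lay in state 1 for 5 genes: Ifit3b (68.6%), Oasl1 (62.0%), Ifit3 (54.9%), Rsad2 (54.5%) and Ifit1 (54.0%), over the 4 libraries together. In ADAM 2 only Ifit3b was above 50%, with Oasl1 at 37.5%, Ifit3 at 49.2%, Rsad2 at 37.2% and Ifit1 at 41.6%. Rsad2 was at 49.7% in AD 2, and Oasl1 had 71 microglial UMIs in all. The Ifit proteins bind viral RNA, and Rsad2 (viperin) makes a chain-terminating nucleotide. Under 10% lay there for 11 genes, among them Ifitm2 (1.94%), Ifitm1 (3.70%), the transcription factors Irf9 (3.85%) and Irf1 (5.93%), Samhd1 (6.83%) and Bst2 (8.72%). The share of Ifitm1 rests on 7 UMIs in state 1, and the order of the lowest genes differed between libraries. Ifitm2 had its highest state mean in state 6, at 266 CPM. Ifit3 and Ifit3b are close paralogs on chromosome 19 and reads can be split between them, as between Oasl1 and Oasl2, Phf11b and Phf11d, or the Ifitm genes, so the separate values of these paralogs are uncertain.

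In state 1 itself, Isg15 stood at 1115 and 644 CPM in the AD libraries and 698 and 709 CPM in the ADAM libraries. Ifit3 stood at 977, 583, 707 and 531 CPM. The genotypes overlapped for both genes. Ifitm3 stood at 968, 1143, 1269 and 1249 CPM, with both ADAM libraries above both AD libraries. State 1 was not tested between genotypes because AD 1 had 19 of its cells.

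The share of microglia in state 1 was 1.19% and 2.16% in the AD libraries and 2.37% and 1.99% in the ADAM libraries. Exact 95% intervals, which cover counting error only, ran from 0.716 to 1.85 for AD 1, the lowest, and from 1.79 to 3.08 for ADAM 1, the highest. The log2 fold of the share was 0.36 (SE 0.67, edgeR adjusted p over the 7 states 0.845), smaller than its error. AD 1 alone was low, and without it the fold was 0.016. The fold was 0.88 without AD 2, 0.24 without ADAM 1 and 0.49 without ADAM 2.

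**Figure D2:**
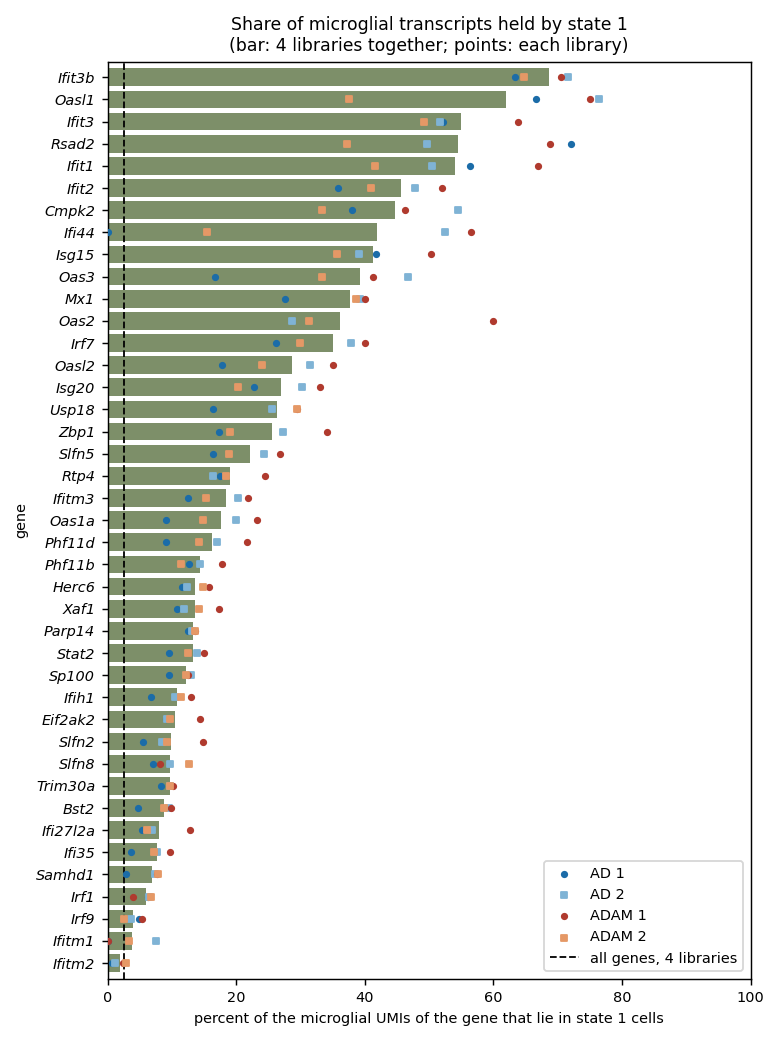
Percent of the microglial UMIs of each gene that lie in state 1 (bars, 4 libraries together; points, each library), with the 2.43% of all genes as a dashed line. Ifit3b, Oasl1, Ifit3, Rsad2 and Ifit1 lie above 50%, Ifitm2 lies at 1.94%, and single libraries scatter widely for genes with few UMIs such as Ifi44 and Oas2.

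The genotypes were then compared in each class and state, over libraries, with the quasi-likelihood test of edgeR on summed counts and adjustment over all genes tested. The sets with at least 20 cells in every library numbered 10. With this test, monocytes were the only one of the 10 sets in which any gene of the list passed. The p-values measure the spread between pools of cortices.

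In monocytes, most of the list was lower in ADAM than in AD. Of the 41 genes, 38 passed the filter on low counts, 35 of these had a negative log2 fold, and the median fold was −1.27, against 0.000 over all 6460 genes tested. Of the 38, 4 fell past the test (Ifit2, Rtp4, Oasl2 and Slfn5) and 0 rose, where the test called 0.108% of all genes lower and 0.0464% higher. At an unadjusted p under 0.05, 28 of the 38 were lower and 0 were higher, where 8.51% of all genes passed in either direction. In CPM, both ADAM libraries lay below both AD libraries for 33 of the 38, against 21.5% of all genes tested, and above both for 2, against 14.1%. Ifit3b, Oasl1 and Ifi44 had too few UMIs to be tested.

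The 4 genes that passed were separated by wide gaps between genotypes. Ifit2 binds RNA and restrains translation (chromosome 19, 34550694 to 34576419). It stood at 45.6 and 57.5 CPM in the AD libraries and 6.41 and 5.77 CPM in the ADAM libraries, on 23, 34, 6 and 12 UMIs. The AD libraries were both high and the ADAM libraries both low. The log2 fold was −3.01 with an SE of 0.34 (edgeR adjusted p = 0.0393), that is, 8.07-fold higher in AD.

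Rtp4, a receptor transporter protein induced by interferon (chromosome 16, 23520291 to 23614222), stood at 208 and 156 CPM in the AD libraries and 34.2 and 29.8 CPM in the ADAM libraries. Its log2 fold was −2.46 (SE 0.26, edgeR adjusted p = 0.0393). Oasl2 (chromosome 5, 114896936 to 114912234) stood at 202, 154, 45.9 and 40.4 CPM, a log2 fold of −1.999 (SE 0.24). Slfn5, a Schlafen protein that restricts viral transcription (chromosome 11, 82951349 to 82964840), stood at 315, 271, 85.4 and 79.9 CPM, a log2 fold of −1.78 (SE 0.21). Both had the same edgeR adjusted p of 0.0393. For each of the 4 genes the libraries of a genotype lay closer to each other than to any library of the other genotype.

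Among the genes named by role, Usp18, Herc6, Stat2, Irf9, Irf1, Ifit1, Oas3, Oas1a, Ifih1, Zbp1, Rsad2 and, above, Sp100 were chosen after their values were seen. The ISG15 system had negative folds for all 3 of its genes. Isg15 (chromosome 4, 156199424 to 156200818) stood at 297 and 222 CPM in the AD libraries and 64.1 and 69.3 CPM in the ADAM libraries. Its log2 fold of −1.90 (SE 0.25) missed the threshold narrowly, with an edgeR adjusted p of 0.0501. Usp18, which removes Isg15 from proteins and damps the receptor, had a fold of −1.92 (SE 0.47), and Herc6, the mouse ligase for Isg15, one of −0.81 (SE 0.36).

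Of the transcription factors, Irf7, the amplifier of interferon production, stood at 210.0 and 237 CPM in the AD libraries and 98.2 and 46.7 CPM in the ADAM libraries (log2 fold −1.64, SE 0.30, edgeR adjusted p = 0.114). Stat2 had a fold of −1.65 (SE 0.29). Irf9 and Irf1 had small folds of −0.24 (SE 0.24) and −0.31 (SE 0.33), each near its own error. The Ifit genes Ifit3 and Ifit1 had folds of −1.88 (SE 0.33) and −0.99 (SE 0.40).

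Sensors and OAS enzymes, which detect double-stranded RNA, had 7 negative folds among 7 tested, with a median of −1.53. Oas3 had a fold of −1.69 (SE 0.30), Oas1a −1.78 (SE 0.42) and Ifih1, the RNA sensor MDA5, −1.49 (SE 0.27). Zbp1, a sensor of left-handed nucleic acid, stood at 428, 250.3, 152 and 157 CPM in AD 1, AD 2, ADAM 1 and ADAM 2. Its fold was −1.08 (SE 0.29, edgeR adjusted p = 0.291).

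The membrane restriction factors did not move together. Bst2 stood at 414 and 318 CPM in the AD libraries and 204 and 89.96 CPM in the ADAM libraries (log2 fold −1.32, SE 0.34). Ifitm3 stood at 6615, 5885, 4149 and 3472 CPM (−0.68, SE 0.15, edgeR adjusted p = 0.182). Ifitm2 was level, at 1985, 2009, 2059 and 2119 CPM (0.11, SE 0.17, and −0.0057 without ADAM 2). Ifitm1 stood at 19.8, 57.5, 108 and 3777 CPM, so that its fold of 5.77 (SE 2.68, edgeR adjusted p = 0.750) rested on ADAM 2.

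Ifi27l2a, a small interferon-induced membrane protein, had the lowest fold of the list in monocytes. It stood at 3386 and 3196 CPM in the AD libraries and 609 and 156 CPM in the ADAM libraries (log2 fold −3.13, SE 0.68, edgeR adjusted p = 0.339), and the 2 ADAM libraries lay far apart. Among the antiviral enzymes, Samhd1 stood at 1551, 1035, 803 and 803 CPM (−0.64, SE 0.24), and Rsad2 overlapped between genotypes. Of the Schlafen genes, Slfn2, needed for T cell quiescence, had a fold of −0.17 (SE 0.21) and Slfn8 one of −1.21 (SE 0.27). The 16 tested genes with ISRE letters in their window had a median fold of −1.41 and the 15 without them −0.86. Tested genes with no window, in neither group, had folds from −0.98 for Parp14 to −3.13 for Ifi27l2a. Whether the letters go with the fold was not tested.

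**Figure D3:**
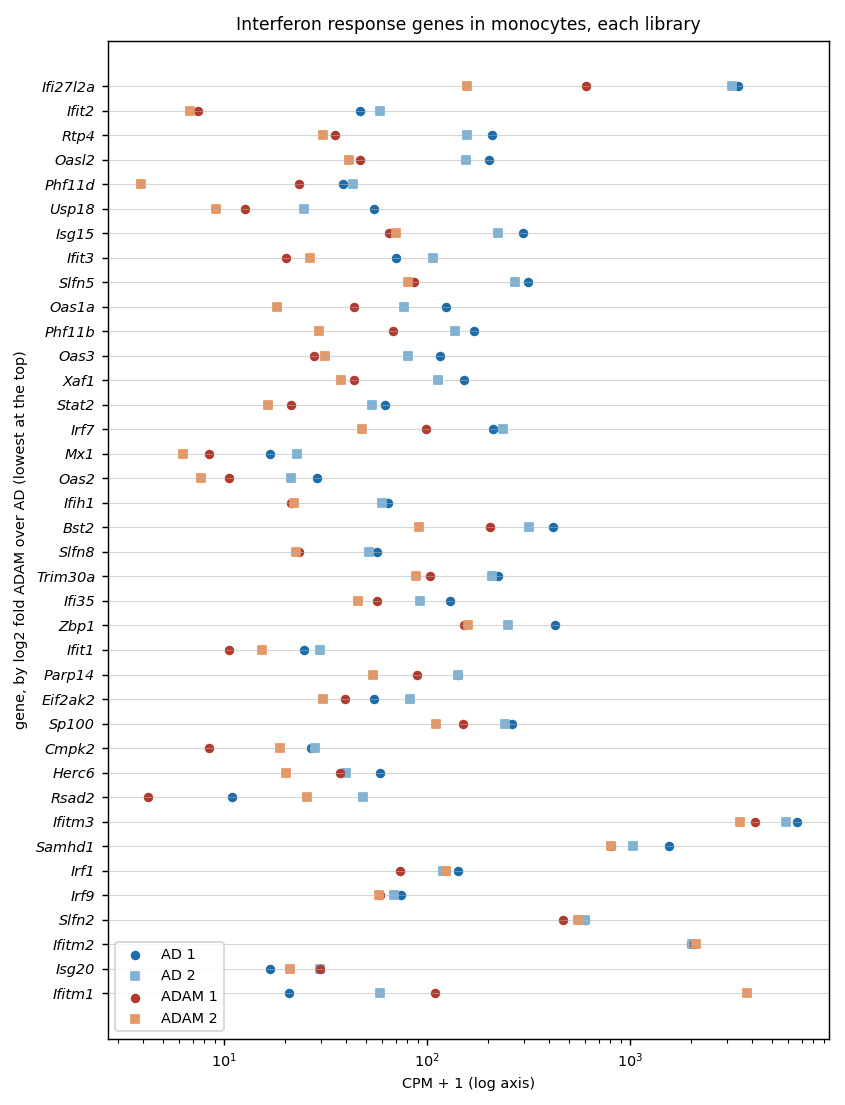
Level of the 38 tested genes in monocytes of each library, as CPM plus 1 on a log axis, ordered by log2 fold (lowest at the top). Both ADAM libraries (red and orange) lie left of both AD libraries (blues) for 33 genes, and Ifitm1 in ADAM 2 lies alone at the right of the bottom row.

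Single cells showed the same order. After thinning each cell to 2000 UMIs, the 38 genes other than Ifitm1, Ifitm2 and Ifitm3 had a median of 20 and 15 UMIs per monocyte in the AD libraries and 6 and 5 in the ADAM libraries. Monocytes with at least 10 such UMIs made up 88.2% in AD 1 (exact 95% interval 78.7 to 94.4) and 70.7% in AD 2 (60.2 to 79.7). They made up 15.8% in ADAM 1 (10.2 to 23.0) and 13.7% in ADAM 2 (9.40 to 19.1). These intervals cover counting error only, not the spread between libraries. Monocytes high in neutrophil markers, described below, were kept in these counts. Without thinning these shares were 91.2%, 90.4%, 69.6% and 84.5%. With the 3 Ifitm genes, which held most of the list's summed CPM in ADAM monocytes, 100%, 97.8%, 92.1% and 96.2% of the thinned cells had at least 10 UMIs of the list, so the separation holds for the other 38 genes only. The interquartile ranges of AD and ADAM libraries did not meet, since the upper quartile in ADAM was 8 or 7 UMIs and the lower quartile in AD 14 or 9. Thinning left out 15, 12, 9 and 9 shallower monocytes in the same order. In T and NK cells the median was 4 or 5 UMIs in every library, and in microglia 2.

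**Figure D4:**
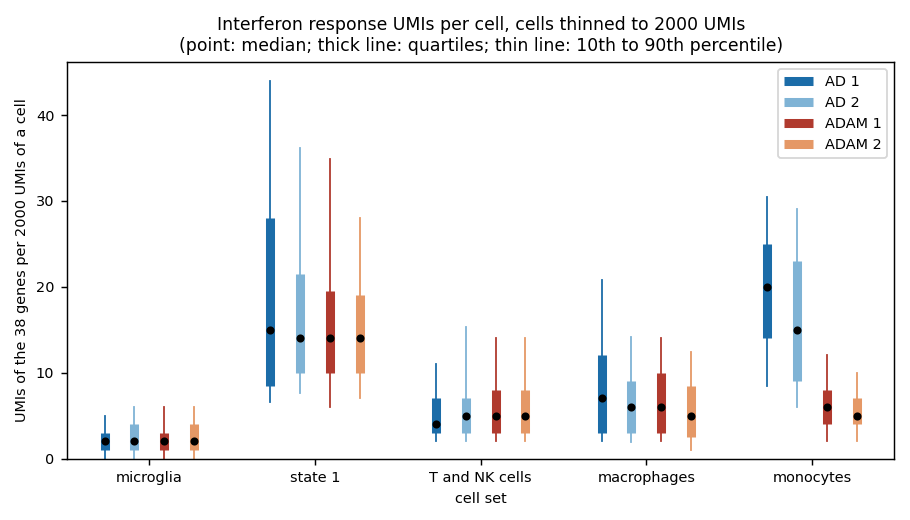
UMIs of the 38 genes per cell after thinning to 2000 UMIs, in 5 cell sets and 4 libraries (point, median; thick line, quartiles; thin line, 10th to 90th percentile). Medians of monocytes are 20 and 15 in AD and 6 and 5 in ADAM, while state 1 medians are 14 or 15 in every library.

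The monocyte class differed between libraries in other ways. The 6 neutrophil markers S100a8, S100a9, Retnlg, Ly6g, Camp and Ngp summed to 77.3 and 1963 CPM in the AD libraries and 4166 and 70180 CPM in the ADAM libraries, and Ly6g, Camp and Ngp were at 0 outside ADAM 2. These markers took over 1% of the UMIs in 0 of 91, 4 of 104, 3 of 148 and 119 of 220 monocytes. Without such cells, 16 genes of the list were called lower and 0 higher, and the median fold was −1.39, while calls over all 6024 genes tested also rose, to 80 lower and 55 higher. The markers then summed to 77.3, 148, 163 and 2369 CPM. In the cells left Ifit2 stood at 45.6, 60.6, 6.69 and 4.29 CPM and Slfn5 at 315, 266, 85.9 and 74.4 CPM, close to the values in all monocytes.

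The 6 monocyte markers summed to 13690 and 12205 CPM in the AD libraries and 5598 and 11114 CPM in the ADAM libraries. Ly6c2, a marker of classical monocytes, stood at 2508 and 1446 CPM in AD and 384 and 652 CPM in ADAM. Cells with a Ly6c2 UMI made up 80.2%, 61.5%, 21.6% and 59.1% of monocytes. Among cells with a Ly6c2 UMI the median fold of the list was −1.28 and among cells without one −0.87, with 1 gene called lower in each, Rtp4 and Ifi27l2a, of 7 and 1 called lower among all genes. The cells without one numbered 18 in AD 1. Whether a shift among kinds of monocytes plays a part in the lower levels was not tested beyond these subsets.

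The number of genes called depended on the setting, while the median fold lay between −0.87 and −1.49 in every alternative run. DESeq2 called 11 genes lower, of 40 lower among all 6460 genes, while limma-voom, a block for the replicate number and thinned cells called 0, of 0 lower among all genes in each. Leaving out AD 1 or AD 2 left 0, of 0 among all genes. Leaving out ADAM 1 gave 22 lower, of 122 lower among all genes, and Ifitm1 higher, and leaving out ADAM 2 gave 9 lower, of 53.

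In microglia as a whole, by contrast, no gene of the list was called. All 41 were tested, 34 had a positive log2 fold, and the median was 0.20 against 0.003 over 11924 genes. The test called 0 of the 41, where it called 0.0419% of all genes. At an unadjusted p under 0.05, 10 of the 41 were higher and 0 lower, where 2.35% of all genes passed in either direction. The count of 10 fell to 4 of 39 tested without state 1, 4 of 38 in states 0 and 5 alone and 4 of 35 after thinning. Among all genes 266, 261 and 329 then passed, against 280 in the main fit. It was 4 with DESeq2 (117 among all genes), 8 with limma-voom (273) and 11 with the replicate number as a block (234). After adjustment DESeq2 called 1 gene, Ifitm3, of 17 among all genes, and limma-voom 0, of 6. Both ADAM libraries lay above both AD libraries for 15 of the 41, against 8.26% of all genes, and below for 0, against 20.3%.

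Ifitm3 (chromosome 7, 141009586 to 141010770) stood at 98.4 and 132 CPM in the AD libraries and 179 and 216 CPM in the ADAM libraries of microglia (log2 fold 0.84, SE 0.17, edgeR adjusted p = 0.716). Bst2 stood at 270.4, 303, 319 and 313 CPM (0.20, SE 0.12). Ifi27l2a stood at 195, 206, 239 and 308 CPM (0.51, SE 0.16). For these 3 genes both ADAM libraries were higher than both AD libraries, by small steps for Bst2. Isg15 stood at 33.8, 38.5, 42.6 and 52.4 CPM (0.45, SE 0.14) and Irf7 at 8.04, 13.04, 15.3 and 19.5 CPM (0.74, SE 0.25). Ifit3 stood at 23.7, 26.3, 34.0 and 28.4 CPM (0.37, SE 0.12).

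Phf11b, whose ISRE letters are printed above, stood at 32.5, 33.1, 39.9 and 39.7 CPM, higher in both ADAM libraries (0.34, SE 0.10). The genes that follow, among the most expressed of the list in microglia, overlapped between genotypes. Trim30a, an E3 ligase, stood at 72.0, 94.4, 79.6 and 94.8 CPM. Eif2ak2, the RNA-activated kinase PKR that halts translation, stood at 30.8, 44.6, 36.1 and 45.3 CPM, and Slfn8 at 36.9, 45.2, 35.4 and 42.4 CPM. Slfn2 stood at 40.8, 55.1, 51.1 and 63.5 CPM, and Samhd1 at 53.4, 54.0, 53.9 and 46.9 CPM. For these 5 genes no genotype lay wholly above the other. Parp14 (42.8, 51.0, 44.3 and 41.4 CPM) and Ifi35 (35.3, 45.2, 44.3 and 41.7 CPM) also overlapped.

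Some of the largest microglial folds rested on few UMIs or 1 library. Oasl1 stood at 0.699, 0.783, 1.63 and 1.84 CPM (log2 fold 1.26, SE 0.43), and Oas2 at 0, 0.968, 0.680 and 1.23 CPM (0.69, SE 0.93). Ifitm1 stood at 0.816, 1.24, 0.340 and 11.5 CPM (2.50, SE 1.95), and its fold was −1.60 without ADAM 2. Ifitm2 stood at 52.2, 29.2, 49.4 and 71.0 CPM (0.65, SE 0.41). In ADAM 2 microglia the neutrophil markers summed to 773 CPM, against 14.8 to 53.7 in the other libraries, and haemoglobin transcripts reached 4498 CPM there, with 0.612 as the highest value elsewhere. With haemoglobin left out of the total, the list summed to 1900 CPM in ADAM 2 microglia, against 1892 CPM with it. Whether these transcripts play a part in the microglial folds beyond that total was not tested.

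The microglial median was 0.146 without state 1, 0.119 in states 0 and 5 alone and 0.106 without ADAM 2. It was 0.142 without AD 1, 0.264 without AD 2 and 0.291 without ADAM 1. In state 0 the median was 0.11, with 0 of 35 tested genes called (0.101% of all genes), and −0.079 without ADAM 2. In state 5 it was 0.15, with 0 of 34 called (0.153%), and 0.0038 without ADAM 2. DESeq2 and limma-voom also called 0 in both states, and 4 and 5 genes had an unadjusted p under 0.05, which 4.22% and 5.30% of all genes had. In states 2, 3 and 4 only 10, 9 and 14 genes could be tested, of which edgeR called 0, with 1, 2 and 2 at an unadjusted p under 0.05 (3.05%, 4.95% and 3.35% of all genes) and 0 called by DESeq2 or limma-voom, where edgeR called 0.0635%, 0.313% and 0.127% of all genes.

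**Figure D5:**
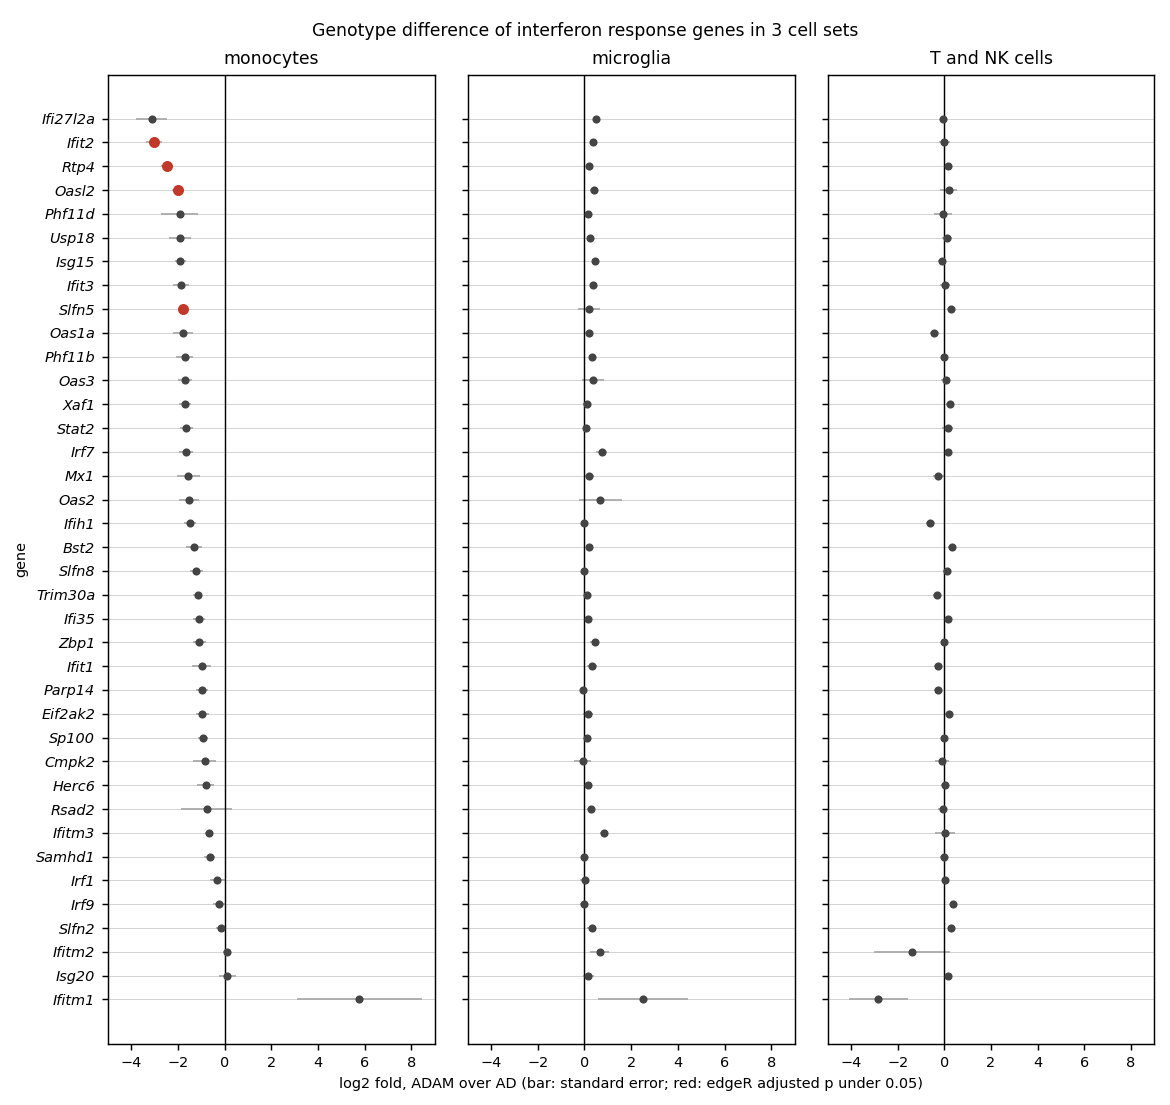
Log2 fold (ADAM over AD) of the 38 genes tested in monocytes, shown in monocytes, microglia and T and NK cells, with standard errors as bars and genes past the edgeR test in red. Folds in monocytes run from −3.13 to 0.12 apart from Ifitm1, with a median of −1.27, those in microglia lie mostly just right of 0, and those in T and NK cells scatter around 0 apart from Ifitm1 and Ifitm2.

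In T and NK cells the folds lay evenly on both sides of 0. Of 40 genes tested edgeR called 0 (0.241% of all genes), 4 had an unadjusted p under 0.05 (5.20% of all genes), and DESeq2 and limma-voom called 0. The median was −0.001, with 20 positive and 20 negative folds. Isg15 stood at 152, 212, 185 and 152 CPM, and Ifi27l2a at 610.3, 659, 595 and 617 CPM, each with the genotypes overlapping. Ifih1, named after its values were seen, had the smallest edgeR adjusted p, 0.680, at a log2 fold of −0.60 (SE 0.20).

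In macrophages edgeR called 0 of 33 genes (0.0154% of all genes), 1 had an unadjusted p under 0.05 (2.21% of all genes), and DESeq2 and limma-voom called 0. The median fold was −0.26 and turned to 0.0044 without ADAM 2. Isg15 stood at 81.6, 73.0, 77.7 and 118 CPM and Bst2 at 1032, 692, 972 and 689 CPM, with the genotypes interleaved. In proliferating cells edgeR called 0 of 32 genes (0.0842%) with a median of −0.077, 2 at an unadjusted p under 0.05 (8.73% of all genes). The median was −0.75 without ADAM 1, with 7 genes called, and 0.38 without ADAM 2, with 4 called, where calls over all genes rose to 750 and 778. The 2 genes were Ifitm3, at 302, 185, 1844 and 1063 CPM (log2 fold 2.72, SE 0.45, edgeR adjusted p = 0.0841), and Ifitm2, at 230.0, 90.2, 1199 and 743 CPM (2.75, SE 0.53, edgeR adjusted p = 0.112). DESeq2 called both, of 65 among all genes, and limma-voom neither, of 0 among all genes. Markers of other cells moved with them in this class: T and NK cell markers summed to 5244 and 2589 CPM in AD and 1047 and 873 CPM in ADAM, and neutrophil markers to 18475 CPM in ADAM 2 against at most 168. Their part in these folds was not tested.

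Whether the genotype effect differed between cell sets was tested within libraries. Monocytes minus microglia, a comparison added after the monocyte values were seen, had 10 genes of the list lower and 1 higher past the test among 41, where edgeR called 0.394% of all 11416 genes. The median difference of log2 folds was −1.48, against 0.089 over all genes. Rtp4, Isg15 and Oasl2 had differences of −2.59 (SE 0.31), −2.24 (SE 0.25) and −2.28 (SE 0.28), with edgeR adjusted p of 7.6e-04, 6.3e-04 and 9.8e-04. In each, the fold was negative in monocytes and positive in microglia.

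Microglia minus T and NK cells had 0 of 40 called by edgeR (0.194% of all genes), 9 at an unadjusted p under 0.05 (5.29% of all genes) and a median of 0.20. State 5 minus state 0 had 0 of 36 called (1.02%), 5 at an unadjusted p under 0.05 (8.88% of all genes) and a median of −0.074. In the latter Parp14 had an edgeR adjusted p of 0.0505. These comparisons share libraries with the single-set tests above.

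The signalling genes around the list were followed with a list of 39, of which 31 were in the table analysed here. Of 30 tested in microglia and 27 in monocytes edgeR called 0, as did DESeq2 and limma-voom. At an unadjusted p under 0.05 in edgeR, 0 of the 30 and 10 of the 27 passed, as did 2.35% and 8.51% of all genes. The median fold of the signalling genes was −0.01 in microglia, with 13 positive, and −0.14 in monocytes, with 11 positive. In monocytes the sensors and adaptors had 7 negative folds among 11 tested, with a median of −0.28. The type I ligands were not analysed here, and Ifng had at most 1.07 CPM in monocytes or microglia of any library. In T and NK cells and in proliferating cells Ifng passed the filter on low counts. Its log2 folds there were −0.13 and −0.97, and it was called in neither.

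The 4 receptor genes had folds from −0.21 to 0.65 in monocytes, with a median of 0.13. Ifngr1, a chain of the interferon gamma receptor, stood at 493, 658, 839 and 570.1 CPM in AD 1, AD 2, ADAM 1 and ADAM 2 monocytes (log2 fold 0.32, SE 0.22), and Ifngr2 at 166, 184, 202 and 132 CPM (−0.05, SE 0.22). Ifnar1 and Ifnar2, named after their values were seen, had folds of 0.65 (SE 0.27, edgeR adjusted p = 0.563) and −0.21 (SE 0.26). Both receptor pairs overlapped between genotypes except Ifnar1, which was higher in both ADAM libraries.

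Below the receptors, the kinase gene Jak1 had a monocyte fold of −0.14 (SE 0.20). Of the machinery that attaches Isg15, the activating enzyme Uba7 had a fold of −0.79 (SE 0.40) and the conjugating enzyme Ube2l6 one of −1.69 (SE 0.39). Of the sensors and adaptors, Irf8 had a fold of −0.60 (SE 0.21) and Tmem173 (STING) one of −0.48 (SE 0.41). Of the brakes, Socs3 stood at 153, 135, 236 and 307 CPM (0.98, SE 0.25), higher in both ADAM libraries, and the phosphatase gene Ptpn6 had a fold of 0.36 (SE 0.19). Other brakes, named after their values were seen, went the other way: Socs1 stood at 51.5, 15.2, 11.7 and 3.37 CPM, on 26, 9, 11 and 7 UMIs (−2.28, SE 0.75, edgeR adjusted p = 0.438), and Adar had a fold of −0.51 (SE 0.29). In microglia as a whole the signalling genes named here had folds from −0.23 for Socs1 to 0.38 for Socs3, with 0 past the test. Over the 10 sets edgeR called 1 gene of the signalling list, Socs3, in states 5 and 3, where it called 0.153% and 0.313% of all genes. In state 5 Socs3 stood at 76.4, 65.5, 127 and 141 CPM and rose in ADAM (log2 fold 0.92, SE 0.12, edgeR adjusted p = 0.0038), called also by DESeq2 and limma-voom, while the difference from its fold in state 0 did not pass the test (0.59, SE 0.47). In state 3 it rose by edgeR (3.33, SE 0.80, adjusted p = 0.0467) but was not called by DESeq2 or limma-voom.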

How the data were processed

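The deposited table holds raw UMI counts per gene and cell from 10x 3′ libraries, per the labels' protocols. Tools listed, with no stated role, are Seurat 3.2.1.9002 and Cell Ranger 3.1.0 (build mm10), per the submitters' processing notes, while cell filters and clustering settings are not stated there. Its cell table, also deposited, gives the authors' cell classes, microglia states and doublet marks, the percent of mitochondrial UMIs and scores per cell, of which only classes and states were used. The 823 cells marked as doublets were left out. Counts were summed per library and class or state where each library had at least 20 cells, and tested with edgeR 4.0.16 (TMM, filterByExpr with a minimum count of 10, robust quasi-likelihood F test, Benjamini-Hochberg adjustment over all genes tested, threshold 0.05). An exact permutation test of 2 against 2 libraries cannot go below p = 0.333. Differences between cell sets were fitted with the library as a block. Levels are CPM of the summed UMIs without TMM, and a 3′ UMI count is not divided by transcript length. Per-cell values used cells thinned to 2000 UMIs. DESeq2 1.42.0, limma-voom (limma 3.58.1), other filters and scaling, subsets of cells and each library left out were alternatives. The edgeR steps were run on counts simulated with the same dispersion for every gene. That run checked the code and does not give the power or the false calls in these libraries. Libraries of one genotype differed beyond sampling noise. The 41 genes, the marker and pathway lists and the tests were chosen with earlier results of these data known. Genes named by rule were the 12 with the highest microglial level, those past a test, the 5 with the largest microglial fold, the highest of each role, and the 3 with the largest state 1 share. Promoters are RefSeq windows (GRCm38.p6), gene positions GENCODE vM21 on mm10. The values of 1 gene of the pathway list are not reported here.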

Additional observations from a re-analysis of the deposited data

Results flagged for a closer look

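The genotype effect differed between monocytes and microglia for 11 genes of the list, by a test of the difference within libraries that was added after the monocyte values were seen. The difference of log2 folds (monocytes minus microglia) was −2.24 for Isg15, −2.59 for Rtp4, −2.28 for Oasl2 and −3.34 for Ifit2, with edgeR adjusted p of 6.3e-04, 7.6e-04, 9.8e-04 and 0.0021. It was −1.41 for Ifitm3 (edgeR adjusted p = 0.0036), −2.13 for Ifit3 (0.0100), −1.99 for Phf11b (0.0121), −1.67 for Xaf1 (0.0147), −2.36 for Irf7 (0.0340) and −1.18 for Trim30a (0.0388). Each of these 10 was below 0 in monocytes and above 0 in microglia. Ifitm1 alone went the other way, at 3.22 (edgeR adjusted p = 6.3e-04), and it was not called without ADAM 2, whose monocytes and microglia also held the most neutrophil marker transcripts. Over the whole list the median difference was −1.31 without AD 1 and −1.84 without ADAM 1.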

How the results depend on the processing

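The median fold of the list in monocytes was below 0 in every alternative, while the number of genes called was not stable. The number was 11 with DESeq2 (53 among all genes in either direction) and 8 without TMM (37 among all genes). It was 23 without the expression filter (276 among all genes, median −1.44). With limma-voom and after thinning (−1.49) it was 0, with 0 among all genes in each. Subsets added after seeing the data gave 16 without cells high in neutrophil markers (135 among all genes, −1.39). They gave 1 with a Ly6c2 UMI (11 among all genes) and 1 without (1 among all genes, −0.87). Leaving out a library gave medians from −1.39 to −1.24. The labels give replicate numbers and no shared source, and same-numbered libraries correlated at 0.05 in monocytes and −0.22 in microglia. With the replicate number as a block, 0 genes were called in monocytes (3 among all genes) and 2 in proliferating cells (80). This block also gave 2 in state 0 (35 among all genes) and 1 in state 3 (21). With crossed numbers in microglia, macrophages and state 2, 8, 9 and 0 genes of all were called and 0 of the list. DESeq2 called 1 gene in microglia and 2 in proliferating cells (17 and 65 among all genes). Without the filter there were 2 in proliferating cells and 1 in state 0 (340 and 94 among all genes). There were also 2 in state 4 and 1 in state 5 (16 and 112 among all genes). Without TMM, 1 was called in microglia minus T and NK cells (Ifitm1, 25 among all genes). In state 5 minus state 0, 1 was called without TMM (Parp14, 123 among all genes). Monocytes minus microglia gave 19 without cells high in neutrophil markers (171 among all genes). Leaving out a library gave 0 to 4 calls in microglia, 0 to 3 in macrophages, 0 to 7 in proliferating cells, 0 to 3 in state 0, 0 to 2 in states 2, 3 and 5, and 1 to 2 in state 4. It gave 0 to 3 calls in microglia minus T and NK cells, 0 to 5 in state 5 minus state 0 and 7 to 23 in monocytes minus microglia. Medians then ran from −0.14 to 0.18 in T and NK cells, −0.59 to 0.0044 in macrophages and −0.75 to 0.38 in proliferating cells (both without ADAM 1 and without ADAM 2, and 0.14 in the latter without the filter), −0.079 to 0.36 in state 0 and 0.0038 to 0.21 in state 5. They ran from 0.11 to 0.48 in microglia minus T and NK cells and −1.84 to −1.31 in monocytes minus microglia. The sign turned for Slfn2 in monocytes (−0.41 to 0.038 over libraries left out, 0.070 without a Ly6c2 UMI), Ifitm2 in monocytes (−0.0057 without ADAM 2 to 0.24), Ifitm1 in microglia (−1.60 without ADAM 2 to 3.48), and in T and NK cells for Isg15 (−0.33 to 0.17, and 0.035 without ADAM 2) and Ifi27l2a (−0.12 to 0.012). The causes were not tested. Monocyte libraries of 504766 to 2078633 UMIs left Ifit3b, Oasl1 and Ifi44 below the filter.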
